A study of Mus musculus with 3 samples.

Results

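The genes described here are 10 mouse genes of retinoic acid handling: Aldh1a1, Aldh1a2 and Aldh1a3, which make it, Crabp1 and Crabp2, which bind it in the cytosol, Cyp26a1 and Cyp26b1, which degrade it, and its receptors Rara, Rarb and Rarg. They were chosen by symbol, and all 10 were found among the 19381 genes of the deposited table. Expression was measured by bulk RNA sequencing in 3 libraries, numbered 1 to 3, of the proximal incisor of 1-month-old Gli1-CreER;Arid1afl/fl;Arid1bfl/fl mice, called DKO, 4 days after tamoxifen at 1.5 mg per 10 g of body weight. All 3 libraries carried the same alleles and the same treatment. Control mice were not analysed here, so every value below describes DKO tissue, and no comparison between genotypes was made.

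Cre in these mice is driven by the Gli1 promoter. Recombination is thus limited to cells that expressed Gli1 around the tamoxifen treatment and to their descendants. The libraries hold RNA of the whole dissected tissue. The labels do not say whether the 3 libraries came from separate animals or from pools. SDs and p-values therefore cover variation among these libraries only, and that variation may be technical.

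Retinoic acid is made from vitamin A inside cells. Retinol is oxidised to retinal, mainly by Rdh10, and retinal is then oxidised irreversibly to retinoic acid by the Aldh1a enzymes. The acid enters the nucleus, with Crabp2 as a carrier, and binds RAR receptors that sit on DNA as partners of RXR receptors, while Cyp26 enzymes oxidise it and so set the borders of its action. In rodents the growing incisor is sensitive to vitamin A: deficiency in the rat disturbs odontoblasts and ameloblasts, the cells that form dentin and enamel.

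Rarb and Cyp26a1 are textbook targets of retinoic acid, and their RefSeq promoter windows (GRCm38.p6) are shown because each holds the RAR binding motif DR5. This motif is a pair of hexamers in the same direction, separated by 5 bases. A hexamer was counted when it read AGGTCA, the form textbooks give first. It was also counted when it read AGTTCA, as both hexamers of Cyp26a1 do, when it read GGGTCA, and when it read GGTTCA, as the first hexamer of Rarb does. Both strands were searched. The hexamers stand in capitals in the sequences below, which are written 5′ to 3′ along the strand of the gene. The Rarb site lies on the minus strand at chr14:16575513-16575529, from base -53 to base -37 relative to the RefSeq start. The Cyp26a1 site lies at chr19:37697776-37697792, from base -32 to base -16, and reads in the direction opposite to the gene. The printed stretches are chr14:16575507-16575535 for Rarb, kept short because it lies inside a longer annotated Rarb transcript, and chr19:37697558-37697797, on the plus strand, for Cyp26a1.
Rarb: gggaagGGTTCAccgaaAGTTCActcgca
Cyp26a1: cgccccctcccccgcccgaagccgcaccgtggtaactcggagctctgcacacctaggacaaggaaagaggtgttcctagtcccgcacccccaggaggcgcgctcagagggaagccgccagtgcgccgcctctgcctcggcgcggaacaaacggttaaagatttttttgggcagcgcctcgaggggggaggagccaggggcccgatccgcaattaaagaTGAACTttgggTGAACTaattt

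Windows of this kind, which run from 250 bases before to 50 bases after an annotated start, were available for 8 of the 10 genes, 13 windows in all, but not for Aldh1a3 and Crabp2. DR5 occurred in 2 of the 13, those of Rarb and Cyp26a1, and in 0.0974% of all 32851 mouse windows. The hexamer forms counted include those of these 2 known sites, so both matches follow from that choice and nothing is read from the difference. A single hexamer of any counted form occurred in 6 of the 13 windows and in 43.7% of all windows. Pairs with a spacing of 1 or 2 bases, which RAR and RXR can also bind, occurred in none of the 13 windows, against 0.222% and 0.268% of all windows. Such matches describe letters in these windows and do not show that a receptor was bound.

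The deposited values are normalized counts, with a 75th percentile of 44.7 in each library and totals from 958773 to 986401. Of 10 dental mesenchyme markers, 9 averaged 10 or more, and the remaining one, Barx1, was at 0.0874, 1.13 and 0.466. Dental epithelium was also represented, with 11 of 12 markers at a mean of at least 10, among them Krt14 at 123, 191 and 154. The floxed genes stood at 136, 130 and 133 for Arid1a and at 50.5, 50.7 and 50.8 for Arid1b, values that include reads outside the floxed exons and from unrecombined cells and so do not check the deletion. Replicate 1 stood apart in interferon-stimulated genes, whose 10 listed members summed to 1426, against 299 and 310 in replicates 2 and 3. In bulk tissue, fewer cells of a type and less RNA per cell cannot be told apart.

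Of the 10 retinoic acid genes, 9 had a mean of at least 10, as did 53.6% of all genes in the table. Aldh1a2 was the exception. Per kilobase of annotated exon, which makes genes of different length comparable, Crabp1 and Rarg exceeded 96.3% and 96.0% of the 18950 genes with an exon length, and Aldh1a2 exceeded 29.4%.

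**Figure D1:**
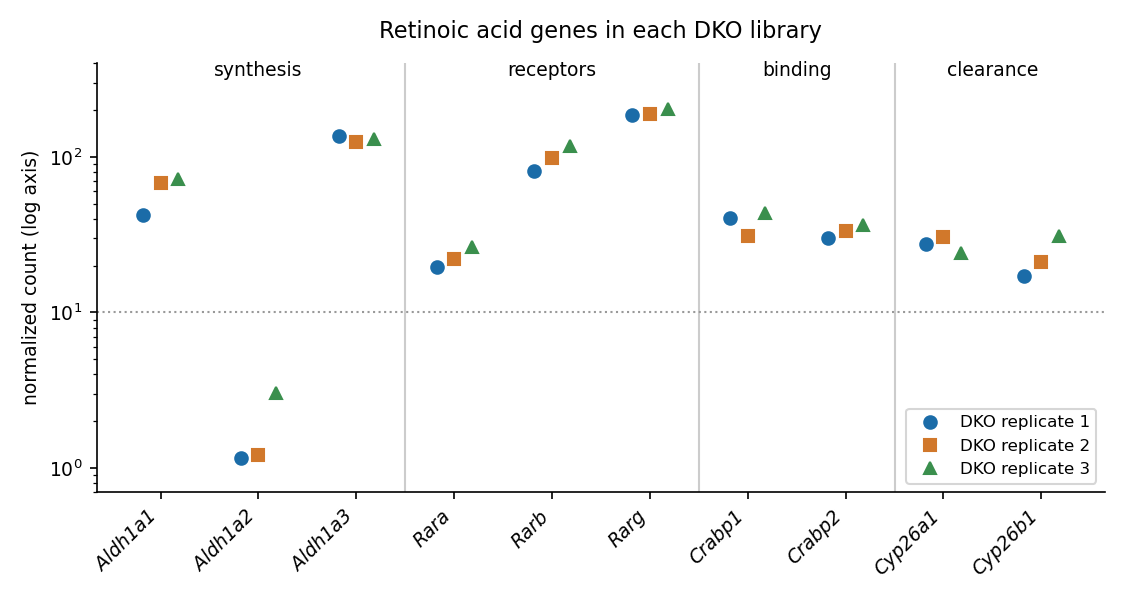
Normalized counts of the 10 retinoic acid genes (log axis, not divided by length) in each of the 3 DKO libraries, grouped by role, with the mean of 10 as a dotted line. Aldh1a2 lies below that line in every library, and Rarg is highest in every library.

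Among the synthesis enzymes, Aldh1a3 had the most abundant transcript. Aldh1a3 (chromosome 7, 66390890 to 66427517, mm10, minus strand), which oxidises retinal to retinoic acid, stood at 137, 125 and 130 normalized counts (131 ± 6.06, SD, n = 3). The 3 libraries were close together, with replicate 1 highest by a narrow margin. Per kilobase of exon, Aldh1a3 supplied 76.6%, 65.4% and 63.9% of the summed Aldh1a1, Aldh1a2 and Aldh1a3 level. These shares depend on the lengths used, here 4617 exon bases for Aldh1a3 and 4937 for Aldh1a1. Their longest coding transcripts have 3443 and 2358 bases, and with those lengths the share of Aldh1a3 would be smaller.

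Aldh1a1 (chromosome 19, 20492715 to 20643465, plus strand), a retinal dehydrogenase that also clears other aldehydes, stood at 42.3, 68.1 and 72.0 (60.8 ± 16.1, SD, n = 3). It was low in replicate 1 alone, and its share of the synthesis level per kilobase was 22.1% there, against 33.3% and 33.1% in replicates 2 and 3. Aldh1a7 (chromosome 19, 20692953 to 20727562, minus strand), its neighbour and close copy, stood at 40.6, 89.8 and 58.8. It too was lowest in replicate 1, but it was highest in replicate 2.

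Reads of Aldh1a1 and Aldh1a7 may be shared, so the level of each is uncertain. One transcript of each was aligned over 2050 bases with 89.6% identity, and 151 of the 4934 distinct words of 50 bases in Aldh1a1 transcripts also occur in Aldh1a7. Among values up to 20 multiples of the smallest in their library, 82.4% to 82.6% were whole multiples within 0.1. Aldh1a1 and Aldh1a7 are larger than that range, and Aldh1a1 lay 0.428 and 0.373 multiples away from a whole one in replicates 2 and 3, and Aldh1a7 lay 0.495 and 0.359 away. Each other retinoic acid gene lay within 0.1 in every library. Of these, Rarb alone lay farther off than the rounding of the values allows in all 3 libraries, by 0.022, 0.077 and 0.048. The sum of Aldh1a1 and Aldh1a7 was 83.0, 158 and 131, which leaves replicate 1 lowest.

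Aldh1a2 (chromosome 9, 71215789 to 71296243, plus strand), the main retinoic acid source of the early mouse embryo, stood at only 1.17, 1.21 and 3.03 (1.80 ± 1.06, SD, n = 3). Replicate 3 was the highest. If the smallest value of a library is 1 read, these values rest on 40, 44 and 130 reads, with counting errors of 15.8%, 15.1% and 8.77%. Its share of the synthesis level per kilobase was 1.33%, 1.29% and 3.03%.

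The receptors were led by Rarg. Rarg (chromosome 15, 102234938 to 102257517, minus strand), the receptor known for its part in skeletal and skin tissue in the mouse, stood at 186, 190 and 205 (194 ± 9.57, SD, n = 3). Its libraries differed little, and it made up 68.6%, 65.2% and 63.0% of the summed receptor level per kilobase. Rara (chromosome 11, 98927818 to 98974942, plus strand), the receptor expressed in most tissues, was the lowest of the receptors at 19.7, 21.9 and 26.3 (22.7 ± 3.38, SD, n = 3), or 7.07%, 7.35% and 7.92% of that sum. The sum holds the full Rarb value, which is uncertain for the reason given below. With a lower Rarb value, the shares of Rarg and Rara would be larger.

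Rarb (chromosome 14, 16430839 to 16819156, minus strand), the receptor gene with the DR5 site printed above, stood at 81.7, 98.7 and 117 (99.1 ± 17.5, SD, n = 3). Replicate 1 was lowest and replicate 3 highest. This value is uncertain, because 1793 of its 5265 exon bases, 34.1%, are also exon of Top2b, a DNA topoisomerase gene on the opposite strand, and the sources used here give no strand setting for the counting.

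Top2b stood at 338, 369 and 327, with no library far from the others, and it was lowest in replicate 3, where Rarb was highest. If Top2b reads fell evenly over its exons, 41.5, 45.3 and 40.1 of its normalized counts would lie in the shared bases. Rarb less that amount would be 40.3, 53.4 and 76.7. Replicate 1 stays lowest and replicate 3 highest after that subtraction, which was chosen after the data had been seen.

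The binding proteins were both measured well. Crabp1 (chromosome 9, 54764748 to 54773110, plus strand), a cytosolic retinoic acid binding protein, stood at 40.7, 31.02 and 43.3 (38.4 ± 6.49, SD, n = 3), and replicate 2 was the lowest. Crabp2 (chromosome 3, 87948666 to 87953376, plus strand), which hands the acid to the receptors, stood at 30.3, 33.4 and 36.6 (33.4 ± 3.12, SD, n = 3). The ranges of these deposited values overlap. Per kilobase, Crabp2 lay below Crabp1 in 3 of 3 libraries, by a log2 ratio of -0.91 ± 0.27 (SD, n = 3), with annotated exons of 1322 bases for Crabp2 and 802 for Crabp1. With the longest coding transcripts, of 931 and 802 bases, the log2 ratio was -0.40, and without division by length it was -0.19.

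Both clearance enzymes of the set were measured well. Cyp26a1 (chromosome 19, 37697798 to 37701536, plus strand), the other gene with a DR5 site printed above, stood at 27.4, 30.7 and 24.2 (27.4 ± 3.26, SD, n = 3). Replicate 2 was highest and replicate 3 lowest. Cyp26b1 (chromosome 6, 84571414 to 84593908, minus strand), an enzyme of the same reaction that limits retinoic acid in mouse skeletal and limb tissue, stood at 17.04, 20.99 and 31.2 (23.1 ± 7.33, SD, n = 3). It was high in replicate 3, where Cyp26a1 was lowest.

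Cyp26c1, the remaining enzyme of the family and not among the 10 genes, stood at 3.03, 2.77 and 1.70. Of the summed level of these 3 enzymes per kilobase, Cyp26a1 made up 73.7%, 73.8% and 64.2% and Cyp26b1 on average 22.1% ± 7.47 (SD, n = 3), with the highest share, 30.7%, in replicate 3. The sum of Cyp26a1 and Cyp26b1 per kilobase stayed between 16.99 and 19.4 normalized counts per kilobase over the libraries. Summed synthesis exceeded summed clearance per kilobase by a log2 ratio of 1.19 ± 0.10 (SD, n = 3), in the same direction in 3 of 3 libraries. With the longest coding transcripts that log2 ratio was 1.66, and without division by length it was 1.94. Transcript levels do not measure the rate of either reaction.

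The order of the 10 genes by mean level per kilobase was Crabp1 (47.8 ± 8.09 normalized counts per kilobase, SD, n = 3), Rarg (45.5 ± 2.25), Aldh1a3 (28.3 ± 1.31), Crabp2 (25.3 ± 2.36), Rarb (18.8 ± 3.33), Cyp26a1 (13.8 ± 1.64), Aldh1a1 (12.3 ± 3.27), Rara (5.19 ± 0.775), Cyp26b1 (4.31 ± 1.37) and Aldh1a2 (0.795 ± 0.470). Of the 9 pairs of neighbours in this order, 5 had ranges over the libraries that did not overlap. Rarg stood 1.61-fold above Aldh1a3, Crabp2 1.35-fold above Rarb, Rarb 1.35-fold above Cyp26a1, Aldh1a1 2.33-fold above Rara and Cyp26b1 5.83-fold above Aldh1a2. The pairs Crabp1 and Rarg, Aldh1a3 and Crabp2, Cyp26a1 and Aldh1a1, and Rara and Cyp26b1 had ranges that overlapped. Within libraries, Rara lay above Cyp26b1 and Aldh1a3 above Crabp2 in 3 of 3, by log2 ratios of 0.30 ± 0.23 and 0.17 ± 0.18 (SD, n = 3), while the other two pairs changed order between libraries.

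No pair could pass a test at this size. An exact permutation test on flipped signs, two-sided, returned p = 0.25 for 7 of the 9 pairs of neighbours and for both class ratios, which is the smallest value that 3 libraries allow, and p = 0.75 for the pairs Crabp1 and Rarg and Cyp26a1 and Aldh1a1. Adjusted by the Benjamini-Hochberg method over the 11 comparisons, the same exact tests gave 0.306 and 0.75. With the share of Top2b taken off, Rarb fell below Cyp26a1 and Aldh1a1 in the order. With the length of the longest coding transcript in place of all exon bases, Rarg moved above Crabp1 and Aldh1a1 above Cyp26a1.

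**Figure D2:**
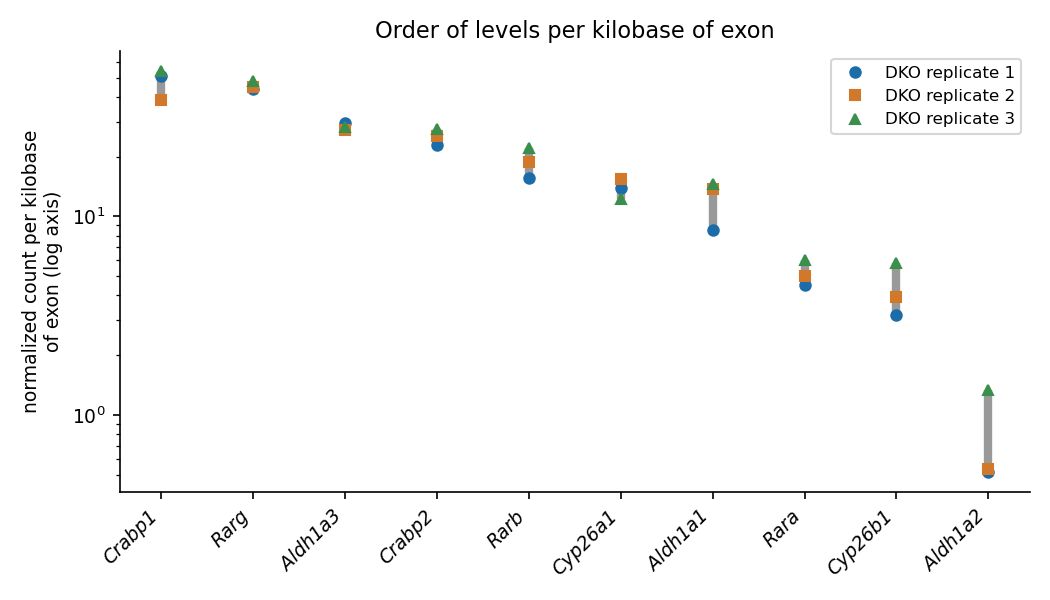
Normalized counts per kilobase of annotated exon (log axis) of the 10 genes in order of their mean, with 1 point per DKO library and a grey bar from the lowest to the highest. Crabp1 and Rarg overlap at the top, and Aldh1a2 lies apart at the bottom with a mean of 0.795.

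Aldh1a1 and Cyp26b1 passed a fixed limit of 1.5-fold for the spread between libraries. Of the 9 genes with a mean of at least 10, these 2 had a highest library at least 1.5 times the lowest on the log2(value + 1) scale, with ratios of 1.69 for Aldh1a1 and 1.79 for Cyp26b1, while 5.68% of all genes at that mean did. The remaining 7 ranged from 1.096 for Aldh1a3 and 1.097 for Rarg to 1.42 for Rarb. Without replicate 1 neither gene passed 1.5, and without replicate 3 Aldh1a1 alone did.

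A median over the 9 genes of 0.40 for the log2 range stands beside 0.19 over the 10388 genes of the table that averaged 10 or more. Some marker lists had as large a median or a larger one, with 0.40 for endothelial, 0.44 for macrophage and 0.81 for dental epithelium markers. The median was lower for dental mesenchyme markers (0.17), listed retinoic acid targets (0.21) and receptor partners and cofactors (0.11). Set against the 500 genes nearest in mean, the SD of log2 values of Aldh1a1 was larger than that of 97.8% of them, that of Rarb than 95.6%, that of Cyp26b1 than 94.6% and that of Crabp1 than 94.0%. Aldh1a3 and Rarg lay at 36.8% and 43.2%, near the middle. If the smallest value is 1 read, counting errors of Aldh1a1 and Cyp26b1 were at most 2.62% and 4.13%, against coefficients of variation of 26.5% and 31.7%.

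**Figure D3:**
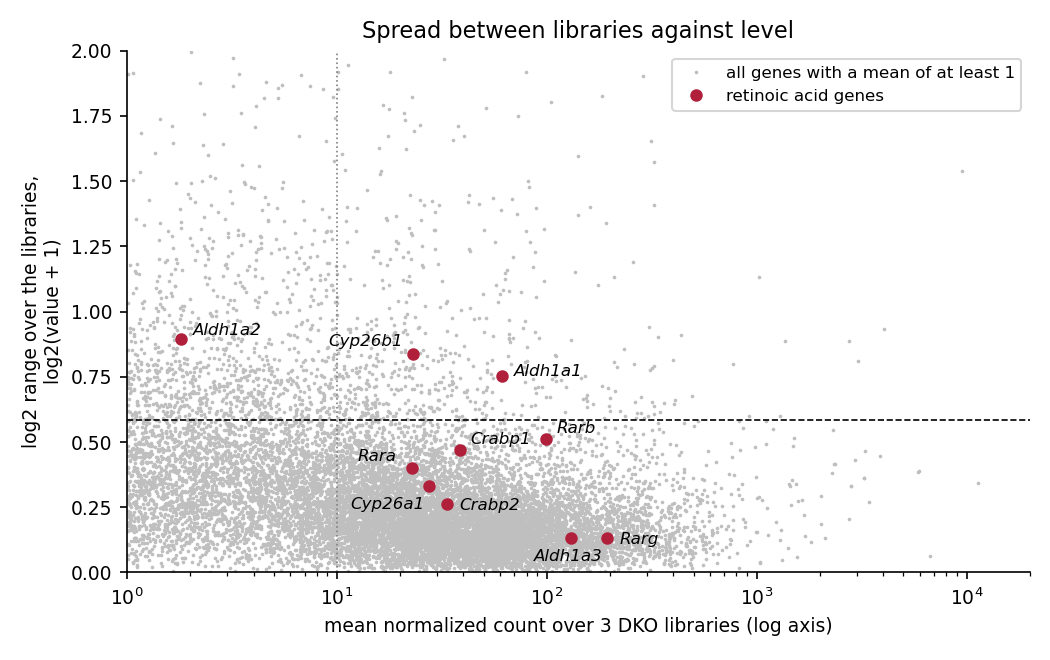
Log2 range over the 3 DKO libraries, on log2(value + 1), against the mean normalized count (log axis) for genes with a mean of at least 1 (grey) and the 10 retinoic acid genes (red), with a dashed line at 1.5-fold and a dotted line at a mean of 10. Aldh1a1 and Cyp26b1 lie above the dashed line right of the dotted one, and 75 genes with a range above 2 lie outside the axis.

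Many of the genes shared the direction of their spread. Of the 9, 6 were lowest in replicate 1, as were 38.1% of all genes that averaged 10 or more, and 7 were highest in replicate 3, as were 34.6%. Both held for 6 genes, namely Aldh1a1, Rara, Rarb, Rarg, Crabp2 and Cyp26b1, and for 20.6% of all genes. All 3 receptors were among them. Aldh1a3 was highest in replicate 1, and Cyp26a1 was highest in replicate 2 and lowest in replicate 3. Replicate 1 also had the largest share of mitochondrial transcripts, 5.11% of its total, against 4.14% and 4.16% in replicates 2 and 3, and the part of RNA quality in these directions was not tested. Genes of 1 pathway are not independent of each other, and no test was made of these counts.

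Markers of other cells moved between the same libraries. Of 10 macrophage markers, 6 were lowest in replicate 1 and highest in replicate 3, as were 20.6% of all genes that averaged 10 or more. Of all genes at that mean, 34.6% were highest in replicate 3 and 38.1% lowest in replicate 1. The macrophage markers summed to 984, 1321 and 1380. The 10 endothelial markers summed to 497, 504 and 660, with 9 highest in replicate 3, and the 9 mural markers to 846, 867 and 968, with 5 highest there. The order of lowest in replicate 1 and highest in replicate 3 was shown by 5 of the endothelial, 4 of the mural and 4 of the 9 better measured dental mesenchyme markers. The 10 cell cycle genes summed to 778, 968 and 910, with 9 lowest in replicate 1 and 3 that were also highest in replicate 3. Dental epithelium markers summed to 909, 1405 and 1023, with 9 of 11 highest in replicate 2, and within them Shh was at 34.3, 33.1 and 0.885. The 10 odontoblast markers, Col1a1 among them, summed to 16091, 6338 and 18373. The 10 dental mesenchyme markers, also with Col1a1, summed to 12671, 7578 and 16759. Dental follicle and periodontium markers summed to 714, 1248 and 1433, though 3 of the 5 that averaged 10 or more were lowest in replicate 3. The sums were 47.7, 56.2 and 66.9 for Schwann cell and nerve markers. They were 21.4, 32.7 and 30.7 for erythroid and 75.5, 96.5 and 93.4 for osteoclast markers. No gene of the table was at 0 in any library, so the lack of a 0 among the markers is no result. The part of these cells in the levels of the retinoic acid genes was not tested.

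**Figure D4:**
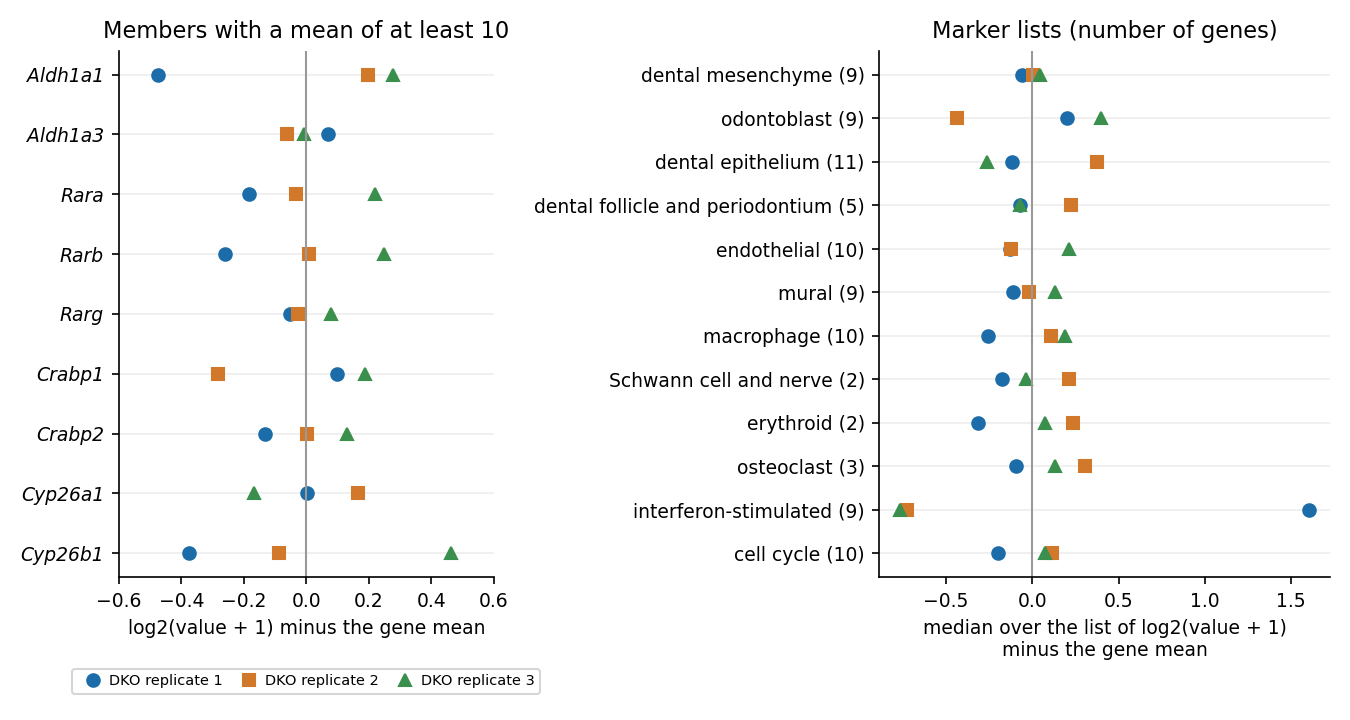
Deviation of log2(value + 1) from the gene's own mean over the 3 DKO libraries, for the 9 retinoic acid genes with a mean of at least 10 (left) and as the median over marker lists (right, with the number of genes in each). Aldh1a1, Rara, Rarb, Rarg, Crabp2 and Cyp26b1 are lowest in replicate 1 and highest in replicate 3, as are the dental mesenchyme, endothelial, mural and macrophage medians.

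The genes whose pattern over the 3 libraries was most like that of Aldh1a1, by the largest difference of centred log2(value + 1) in any library, were Jun (0.012), Samd4 (0.016) and Pde4b (0.022). Jun, a subunit of the AP-1 transcription factor, stood at 21.5, 34.5 and 36.3. Those nearest to Cyp26b1 were Thsd4 (0.011), Cd4 (0.038) and Col5a2 (0.040), a fibrillar collagen chain, which stood at 580, 727 and 1010. Each was picked from 10387 genes over only 3 libraries, so near matches are common by number alone.

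Upstream of the Aldh1a enzymes, Rdh10 had the highest level per kilobase of the enzymes that act on retinol. This gene, the main retinol dehydrogenase of the mouse embryo, stood at 332, 322 and 309 normalized counts and at 77.2 ± 2.73 per kilobase (SD, n = 3), above every one of the 10 genes. Dhrs3, which returns retinal to retinol, stood at 33.0, 32.8 and 40.9, or 12.1 ± 1.57 per kilobase. Adh5 (80.8 ± 0.499), Rdh11 (36.7 ± 3.14) and Rdh14 (20.4 ± 1.05 normalized counts, SD, n = 3) belong to families that oxidise alcohols or carry out the reverse reaction. Lrp1, a receptor that takes up lipoprotein remnants and the retinyl esters in them, stood at 490, 519 and 629. Of 26 listed genes of retinol uptake, storage and oxidation, 20 were in the table and 11 had a mean of at least 10, and the one with a ratio of at least 1.5 was Lpl, at 10.8, 17.2 and 20.8. That 1 of 11 stands beside 5.68% of all genes at that mean.

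Stra6 and Lrat, which bring in and store retinol, were low. Stra6, the receptor for retinol carried in plasma, stood at 3.38, 2.61 and 2.70, and Lrat, which stores retinol as esters, at 0.0291, 0.275 and 0.326, so that its value in replicate 1 was the smallest of that library. Among further aldehyde dehydrogenases, Aldh2, which clears acetaldehyde, stood at 162, 147 and 172, and Aldh1b1 at 2.33, 1.92 and 1.77.

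Of the RXR partners of the receptors, Rxra was the highest and Rxrg the lowest. Rxra stood at 76.0, 86.3 and 88.4, Rxrb at 35.0, 36.6 and 35.8 and Rxrg at 2.83, 2.31 and 2.42. Per kilobase Rxra (15.3 ± 1.21, SD, n = 3) lay between Rarb and Cyp26a1 in mean. The corepressor Ncor1, which holds RAR targets silent without ligand, stood at 279 ± 11.9, and the coactivators Ncoa2, Ncoa3 and Ep300 at 148 ± 6.03, 114 ± 14.6 and 174 ± 8.58 (SD, n = 3). Hdac3, the histone deacetylase of the corepressor complex, stood at 60.2 ± 2.07. Of 16 listed partners and cofactors, 15 had a mean of at least 10 and none of these had a ratio of 1.5 or more, against 5.68% of all genes at that mean, so a count of 0 among 15 is near the background.

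Of 20 further listed targets of retinoic acid, 12 were in the table and 9 had a mean of at least 10. None of the 9 had a ratio of 1.5 or more, which is again near the 5.68% of all genes at that mean. Ccnd1 (169 ± 6.83), Klf4 (74.0 ± 3.77), Zfp703 (56.3 ± 1.73) and Rai14 (80.3 ± 5.87 normalized counts, SD, n = 3) were the highest per kilobase, and each answers to other signals too. Nr2f2, an orphan nuclear receptor, stood at 37.5, 45.4 and 43.9, and Tgm2, a transglutaminase, at 32.4, 32.7 and 37.1. Meis1, at 3.03, 3.16 and 0.745, was lower in replicate 3, where Shh also was.

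**Figure D5:**
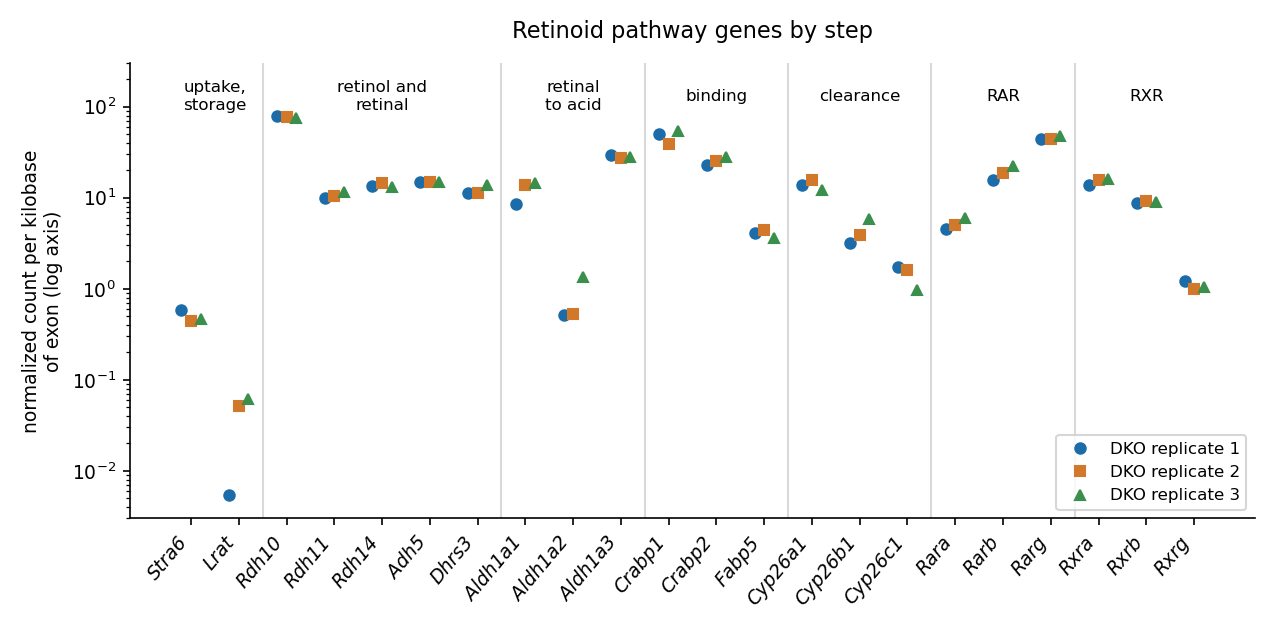
Normalized counts per kilobase of annotated exon (log axis) of retinoid genes in each DKO library, ordered from uptake and storage of retinol to the receptors. Rdh10 is highest at 77.2 on average, and Lrat is lowest.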

How the data were processed

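The deposited values are normalized signal per gene, called normalized counts by the authors in the name of the table. They share a 75th percentile and are not divided by length. Reads were aligned with TopHat2 2.0.8 to mm10, per the submitters' processing notes. The sources used here do not give the counter, its strand setting, the annotation or any filter. No gene of the table is at 0 in any library, with smallest values of 0.0291, 0.0275 and 0.0233. Why some listed genes are absent from the table is not known. Among low values, up to 20 multiples of a library's smallest value, 82.6%, 82.4% and 82.5% were whole multiples within a tolerance of 0.1, so whole reads were not recovered and no count model was used. If the smallest value is 1 read, the totals are 33863100, 34900600 and 41477600 reads, and the counting errors given leave out library preparation and PCR.

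The number shared by a column and a library name tied each column to its library. Gene starts equal GENCODE M21 and deposited ends lie 1 base beyond it for all 10 genes, so ends were reduced by 1. Exon lengths came from GENCODE M21 and promoter windows from RefSeq. Logarithms were log2(value + 1), and calls of spread used a mean of at least 10. Python 3.11.15, pandas 2.3.3 and Biopython 1.88 were used. The calls were also run on simulated data. Their noise between libraries was smaller than the median SD of log2 values in the real data, 0.10. That run therefore does not show how the calls behave at the noise of the real data.

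The members, gene lists, tests and the rule for named genes were chosen with earlier results of these data known. The rule took all members and, of each pathway list, the 4 highest genes per kilobase with others at a mean of at least 10. It also took the 3 highest markers of each cell list and the 3 genes nearest in pattern to each member past 1.5-fold. Cell lists are given by the sums over their markers instead of those 3 markers. Shh, Barx1, Meis1, Stra6, Lrat, Rxrg, Top2b, Arid1a and Arid1b were named outside the rule, after their values were seen. Some listed genes enter the counts but are not reported here by name.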

Additional observations from a re-analysis of the deposited data

How the results depend on the processing

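The number of genes with a mean of at least 10 was 9 of 10 under equal library totals and without any 1 library, 10 when the minimum was 1 and 2 when it was 100. The 2 genes with a ratio of at least 1.5 became 0 with a 2-fold limit, which 1.7% of all genes passed. They became 0 with a minimum mean of 100, where 3.9% of all genes passed 1.5. After omission of 1 library between 0 and 2 passed, against 1.6% to 3.8% of all genes. No filter gave 3, against 10.1% of all genes, and the subtraction of Top2b from Rarb gave 3, against 5.7%. Both other pseudocounts and both rescalings gave 2, against 3.1% to 6.1% of all genes. The 6 genes lowest in replicate 1 and highest in replicate 3 became 1 with a minimum mean of 100. At that minimum 2 genes remained to count, and 25.3% of all genes showed the order. Both rescalings gave 6, against 23.5% of all genes under equal totals. With mitochondrial and ribosomal RNA genes also left out of the totals, that share was 17.02%. The 5 pairs of neighbours with ranges apart became 5 to 8 after omission of 1 library, since fewer libraries give narrower ranges, and 4 without division by length, with coding transcript lengths or without the share of Top2b. The log2 ratio of synthesis to clearance ranged from 1.14 to 1.94 and that of Crabp2 to Crabp1 from -1.06 to -0.19, with the same sign in every alternative run and exact permutation p from 0.25 to 0.5. Equal totals cannot change a ratio taken within a library, so that run is no check of the ratios. Level means moved by less than 1 SD under rescaling for all 10 genes, and the mean of Rarb was 56.8 after the share of Top2b was taken off. Rescaling to equal totals is a weak check of the levels, because the deposited totals ran only from 958773 to 986401. With 3 libraries, omission of 1 cannot move a mean by 1 SD, so that setting is no check of the levels. No paired analysis was possible because there was 1 group. Changes by coding length, by Top2b, in equal totals for the class ratios and in the counts of lowest and highest libraries were chosen after seeing the data. Among the 10 genes, depth limits Aldh1a2 most, with counting errors of 8.77% to 15.8% if the smallest value is 1 read.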
